A study of Mus musculus with 6 samples.

Results

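The 9 genes described here encode scavenger receptors of macrophages: Marco, Msr1, Cd36, Scarb1, Olr1, Colec12, Stab1, Cd163 and Mrc1. They were taken as a named set, by symbol, and all 9 were among the 46983 gene identifiers of the count table and among the 16115 genes tested. RNA came from bone marrow derived macrophages, which are marrow cells grown in medium that turns them into macrophages. Femur marrow of C57BL/6 mice, either wild type (WT) or lacking AEG-1 (AEG-1 KO), was kept for 7 days in medium with 20% L929 conditioned medium and 10% serum, and both groups were left untreated. Mtdh is the gene that encodes AEG-1. The sources used here do not say how the allele was made, whether it is lost in all cells, or how many mice gave marrow. There were 3 libraries per genotype, and since nothing says that they came from separate animals or cultures, the p-values speak only of library-to-library spread, which may be technical.

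Scavenger receptors are cell-surface proteins that bind modified lipoproteins, microbes, dying cells and spent blood proteins and carry them into the cell. They are grouped by structure rather than by descent. Marco, Msr1 and Colec12 carry a collagen-like stalk (class A), Cd36 and Scarb1 are hairpin-shaped membrane proteins that also move lipid (class B), Olr1 is a C-type lectin that binds oxidised LDL (class E), Stab1 is a large multidomain receptor (class H), Cd163 takes up haemoglobin bound to haptoglobin, and Mrc1, the mannose receptor, binds glycoproteins with exposed mannose. Macrophages of different tissues are known to carry different mixtures of these receptors.

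Total counts ran from 42548170 to 58947230 per library. Mtdh had 11560 to 14849 reads in the WT libraries and 15 to 22 in the AEG-1 KO libraries, so that each library carried the Mtdh level of its label. All 15 macrophage markers were detected, among them Lyz2 at 9743 ± 309 CPM and Adgre1, which encodes F4/80, at 4605 ± 34 CPM in WT (CPM, the count scaled to the TMM-adjusted library size; SD, n = 3). The 8 T and NK cell markers summed to 0.65 to 0.893 CPM per library.

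Marco, the most abundant of the 9 receptor transcripts, fell in AEG-1 KO to 64.9% of its WT level, while Mrc1 rose by 34.1%. Colec12, at 19.4% above WT, passed the threshold narrowly and lost its call in 11 of 14 alternative analyses. The other 6 did not pass the test. Of the 9 genes, 2 were called higher and 1 lower (quasi-likelihood test of edgeR, with p adjusted by Benjamini-Hochberg over all genes tested and called under 0.05), or 33.3% of the set. Over all genes 6.35% were called, 3.31% higher and 3.04% lower. The members and the lists below were chosen with earlier results of these data known, so such shares describe them and do not test them. The median log2 fold change of the 9 was 0.12, against 0.01 over all genes tested. CPM of the genotypes did not overlap for 4 of the 9 genes, Marco, Mrc1, Colec12 and Msr1, where 26.8% of all genes tested had no overlap (13.9% higher and 12.9% lower in AEG-1 KO). In bulk RNA, a change in the number of cells that express a gene and a change in the RNA per cell cannot be told apart.

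The levels of the 9 receptors in WT macrophages spanned more than 3 orders of magnitude. Compared per length of exon (CPM per kb, with the union of all annotated exons as the length), Marco stood first at 1806 ± 93.2 CPM per kb (SD, n = 3), the rank 12 level of all tested genes with a length. Cd36 followed at 410 ± 19.2 CPM per kb, and Marco was 4.40 times as high. Msr1 and Stab1 lay at 63.5 ± 2.25 and 49.9 ± 4.75 CPM per kb. Scarb1 and Mrc1 lay at 14.8 ± 0.587 and 12.6 ± 0.302 CPM per kb. The WT ranges of these neighbours did not overlap, although Msr1 stood only 1.27 times above Stab1 and Scarb1 1.18 times above Mrc1. Colec12 and Olr1, at 1.35 ± 0.0437 and 1.22 ± 0.205 CPM per kb, had overlapping ranges and cannot be ordered. Cd163 was the lowest, at 0.434 ± 0.0506 CPM per kb, with 90 to 154 reads per WT library.

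**Figure D1:**
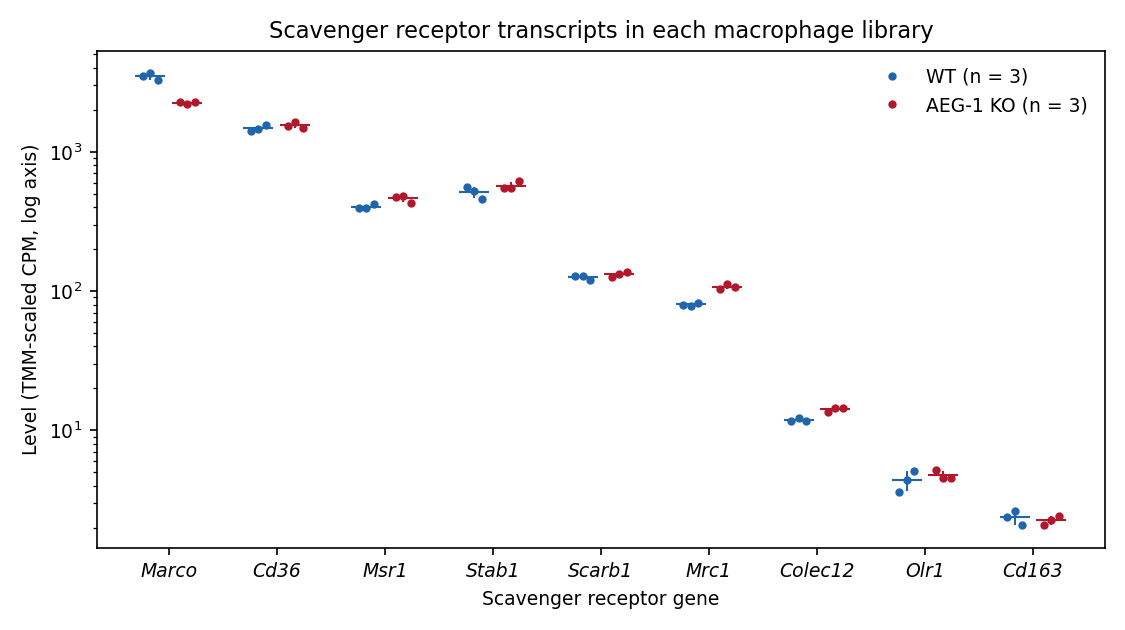
TMM-scaled CPM (log axis) of the 9 scavenger receptor genes in each library (points), with the group mean (dash) and SD (vertical bar), with WT in blue and AEG-1 KO in red, 3 libraries each; genes are ordered by their WT level per kb of exon. Marco lies at 3298 to 3657 CPM in WT and 2205 to 2288 CPM in AEG-1 KO, and Cd163 near 2 CPM in both.

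Among the class A receptors, Marco fell, Msr1 did not pass the test and Colec12 passed it narrowly. Marco (ENSMUSG00000026390, GRCm38 chromosome 1, 120474538 to 120505024) binds bacteria and inhaled particles and is known from macrophages of the spleen's marginal zone and the lung. It had 155270, 213958 and 142639 reads in WT replicates 1 to 3, or 3475, 3657 and 3298 CPM. In AEG-1 KO replicates 1 to 3 it had 102701, 93909 and 102512 reads, or 2279, 2205 and 2288 CPM. Every AEG-1 KO library lay below every WT library, and the gap between the groups was wider than the range within either. The log2 fold change was -0.62 ± 0.05 (SE; 95% interval -0.73 to -0.52; adjusted p by edgeR = 0.000149), and Marco ranked 25 of all genes tested by p.

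Msr1 (ENSMUSG00000025044, chromosome 8, 39581685 to 39642673), the class A receptor first known for taking up acetylated LDL, had 395, 394 and 419 CPM in WT replicates 1 to 3. In AEG-1 KO replicates 1 to 3 it had 472, 482 and 432 CPM. The groups did not overlap, but the lowest AEG-1 KO library stood close to the highest WT library. Its log2 fold change of 0.20 ± 0.05 (SE; 95% interval 0.08 to 0.31) missed the threshold (adjusted p by edgeR = 0.0536). It passed without WT replicate 3 or without AEG-1 KO replicate 3 (adjusted p by edgeR = 0.0397 and 0.0412) and with DESeq2 (adjusted p = 0.0318).

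Colec12 (ENSMUSG00000036103, chromosome 18, 9707595 to 9882644), a collectin with a lectin domain at the end of its stalk, was a minor transcript with 501 to 716 reads per library. It had 11.6, 12.2 and 11.6 CPM in WT replicates 1 to 3, and replicates 1 to 3 of AEG-1 KO had 13.6, 14.4 and 14.3 CPM. The AEG-1 KO libraries all lay above the WT libraries. The log2 fold change was 0.26 ± 0.06 (SE; adjusted p by edgeR = 0.048), just inside the threshold, and the call was lost when any of the 6 libraries was left out (adjusted p by edgeR from 0.0821 to 0.191). Its transcripts share a stretch of at least 100 nucleotides at 95% identity or more with transcripts of 202 other genes, so its count is uncertain.

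Mrc1 (ENSMUSG00000026712, chromosome 2, 14229392 to 14332057), which encodes the mannose receptor and is widely used as a marker of alternatively activated macrophages, rose in AEG-1 KO. It had 79.9, 78.6 and 82.4 CPM in WT replicates 1 to 3, from 3568, 4600 and 3563 reads. Replicates 1 to 3 of AEG-1 KO had 103, 113 and 107 CPM, from 4651, 4800 and 4794 reads. The AEG-1 KO libraries all stood above the WT libraries, by more than the whole range within either genotype. The log2 fold change was 0.42 ± 0.05 (SE; 95% interval 0.32 to 0.53; adjusted p by edgeR = 0.00117).

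**Figure D2:**
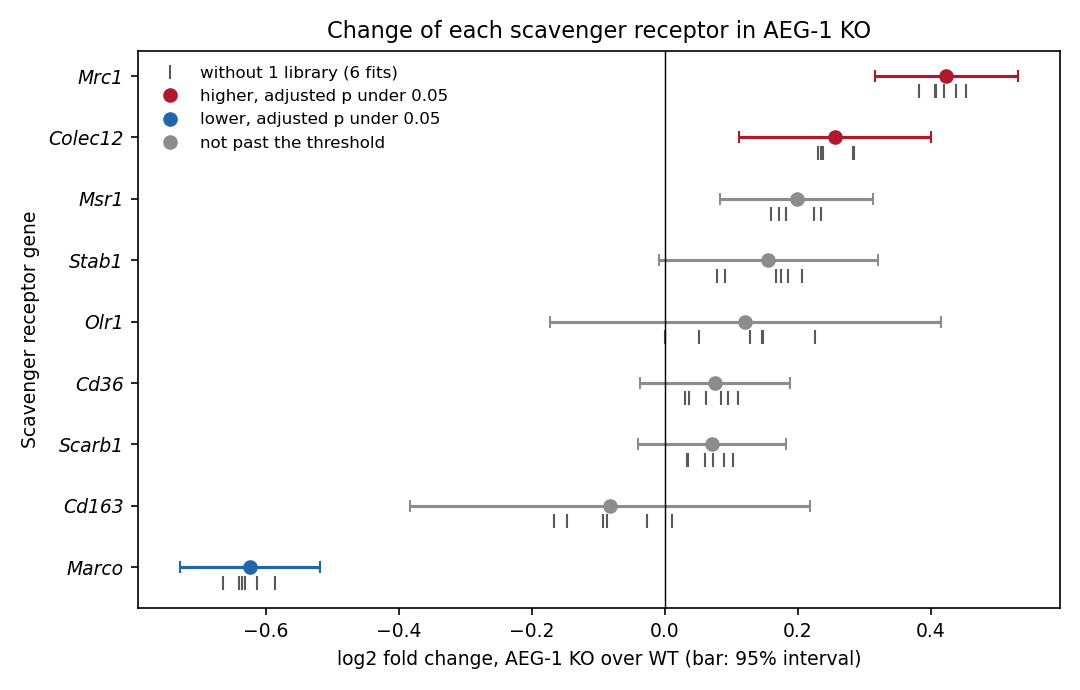
Log2 fold change on the horizontal axis (AEG-1 KO relative to WT) of each scavenger receptor gene with its 95% interval (bar), red or blue where called higher or lower at an adjusted p by edgeR under 0.05 and grey otherwise; ticks below each point are the 6 fits that leave out 1 library. Marco lies at -0.62 with ticks from -0.66 to -0.59, Mrc1 at 0.42 with ticks from 0.38 to 0.45, and the ticks of Olr1 and Cd163 reach 0.

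The starts of Marco and Mrc1 are shown because these genes moved in opposite directions and kept their calls in every alternative run. Each sequence is the 250 bases before the RefSeq transcript start (GRCm38.p6, 5′ to 3′ on the gene's strand), with each GAGGAA, or TTCCTC on the other strand, in capitals. GAGGAA is the core bound by PU.1, the lineage transcription factor of macrophages. The Marco window is chr1:120505025-120505274 (minus strand) and the Mrc1 window chr2:14229164-14229413 (plus strand).
Marco: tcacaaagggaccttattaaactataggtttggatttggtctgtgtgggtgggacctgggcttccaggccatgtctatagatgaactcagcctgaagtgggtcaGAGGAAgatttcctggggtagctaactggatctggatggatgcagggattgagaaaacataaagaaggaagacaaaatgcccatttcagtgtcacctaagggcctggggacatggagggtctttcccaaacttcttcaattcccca
Mrc1: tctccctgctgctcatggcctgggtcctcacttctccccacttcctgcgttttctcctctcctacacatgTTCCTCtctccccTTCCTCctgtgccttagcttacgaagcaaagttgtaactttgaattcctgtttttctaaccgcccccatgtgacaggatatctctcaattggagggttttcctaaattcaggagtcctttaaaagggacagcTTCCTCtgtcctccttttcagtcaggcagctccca
The Marco window held 1 GAGGAA, at bases 146 to 141 before the start. The Mrc1 window held 3, all on the other strand, the nearest at bases 35 to 30.

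RefSeq windows were at hand for 6 of the 9 genes, Marco, Mrc1, Cd36, Cd163, Olr1 and Stab1, and not for Msr1, Scarb1 and Colec12. Both strands were searched for 5 motifs, and no match of one overlapped a match of another. GAGGAA was in 4 of the 6 windows (Marco, Mrc1, Olr1 and Stab1) and in 23.4% of 32536 distinct windows of the same length. The NF-kB motif was in 4 (Marco, Mrc1, Cd36 and Cd163), against 17.7% of all windows. The AP-1 motif TGANTCA was in the Olr1 window alone, against 6.73% of all windows. The antioxidant response element TGACNNNGC and the TATA letters TATAAA were in none of the 6, against 10.2% and 12.3% of all windows. These matches describe letters in the windows and not bound sites.

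The class B receptors were measured with high counts and did not pass the test. Cd36 (ENSMUSG00000002944, chromosome 5, 17781690 to 17888801), which takes up long-chain fatty acids and oxidised LDL, had 1421, 1449 and 1552 CPM in WT replicates 1 to 3, and replicates 1 to 3 of AEG-1 KO had 1532, 1634 and 1492 CPM. The groups overlapped, with WT replicate 3 above 2 of the 3 AEG-1 KO libraries. Its log2 fold change was 0.08, with a 95% interval from -0.04 to 0.19 (adjusted p by edgeR = 0.436), which is a change of -2.59% to 13.9%. Scarb1 (ENSMUSG00000037936, chromosome 5, 125277087 to 125341094), the HDL receptor that exchanges cholesterol with lipoproteins, had 120 to 129 CPM in WT and 127 to 137 CPM in AEG-1 KO. Its log2 fold change was 0.07, with an interval from -0.04 to 0.18 (adjusted p by edgeR = 0.457).

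Stab1 (ENSMUSG00000042286, chromosome 14, 31139013 to 31168641), known for clearing SPARC and dying cells, had 557, 522 and 460 CPM in WT replicates 1 to 3, and replicates 1 to 3 of AEG-1 KO had 548, 551 and 616 CPM. Its spread among WT libraries, at a coefficient of variation of 9.51%, was the widest of the 6 receptors above 50 CPM. The groups overlapped, and its log2 fold change of 0.16 had an interval from -0.01 to 0.32 (adjusted p by edgeR = 0.259). Stab1 shares 112 exon bases with Nt5dc2 on the opposite strand, and since the strand setting of the counting is not given in the sources used here, its count is uncertain by the reads of that stretch. Over the 6 libraries Nt5dc2 had 19319 reads and Stab1 151084.

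Olr1 and Cd163 were near the floor of the set and the data say least about them. Olr1 (ENSMUSG00000030162, chromosome 6, 129485244 to 129507165) had 162 to 258 reads per library, or 3.63 to 5.09 CPM in WT and 4.53 to 5.19 CPM in AEG-1 KO. Its log2 fold change was 0.12, with an interval from -0.17 to 0.42 (adjusted p by edgeR = 0.655). Cd163 (ENSMUSG00000008845, chromosome 6, 124304656 to 124330527) had 2.08 to 2.63 CPM in WT and 2.09 to 2.43 CPM in AEG-1 KO, a log2 fold change of -0.08 with an interval from -0.38 to 0.22 (adjusted p by edgeR = 0.779). A rise of the size of Colec12 (0.26) lies inside the Olr1 interval. It lies outside that of Cd163, which holds a fall of that size.

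Summed over the 9 genes, receptor transcripts went from 6091 ± 150 CPM in WT to 5105 ± 29.9 CPM in AEG-1 KO (SD, n = 3). Without Marco the sum was 2614 ± 33.3 CPM in WT against 2847 ± 74.5 CPM in AEG-1 KO. Neither pair of groups overlapped, and each difference had a two-sided exact permutation p of 0.1, the smallest that 3 against 3 libraries can give. Per kb of exon, Marco made up 76.5% ± 1.4 of the 9 receptors in WT and 66.3% ± 1.26 in AEG-1 KO. The share of Cd36 went from 17.4% ± 1.30 to 24.4% ± 1.17, and that of Mrc1 from 0.535% ± 0.0306 to 0.955% ± 0.044. These shares are parts of 1 sum and move together, and the level of Cd36 itself did not pass the test.

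The ratio of reads of 2 genes within a library does not depend on the scaling between libraries. Marco had 43.5, 46.5 and 40.0 reads for each Mrc1 read in WT replicates 1 to 3, and replicates 1 to 3 of AEG-1 KO had 22.1, 19.6 and 21.4. The mean log2 ratio was 5.44 ± 0.11 in WT and 4.39 ± 0.09 in AEG-1 KO (SD, n = 3), a difference of -1.04. Marco to Msr1 went from 8.65 ± 0.719 to 4.90 ± 0.364, and Marco to Cd36 from 2.37 ± 0.211 to 1.46 ± 0.0956. All 8 ratios of Marco to another member were lower in each AEG-1 KO library than in each WT library, by 0.56 (Cd163) to 1.04 (Mrc1) on the log2 scale. The 8 ratios share the Marco reads and are not independent. Each had an exact two-sided permutation p of 0.1 (0.1 after Benjamini-Hochberg adjustment over the 8), the smallest this design allows.

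**Figure D3:**
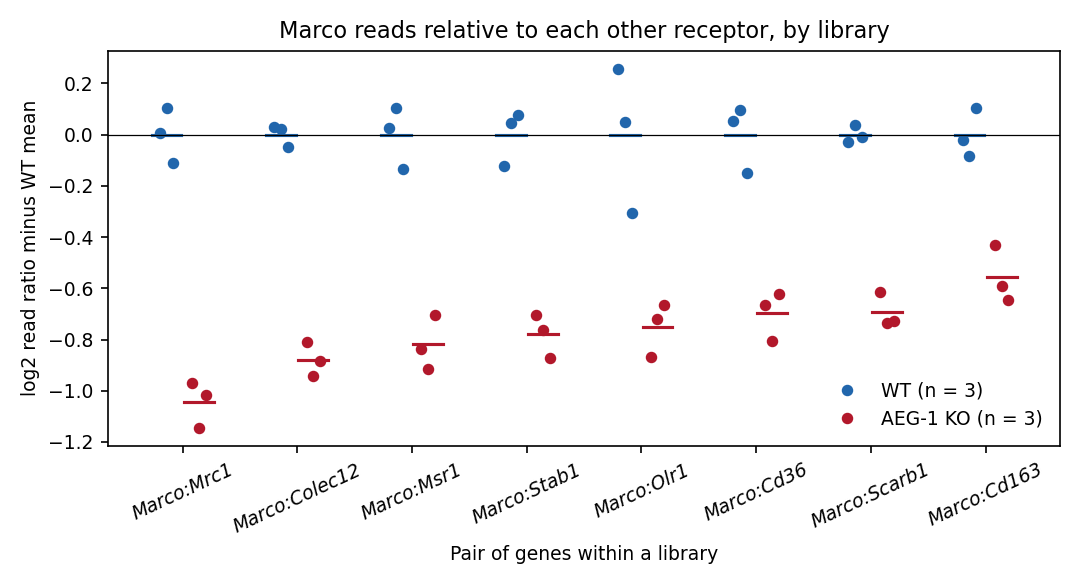
Log2 ratio of Marco reads to the reads of each other receptor in each library, minus the WT mean of that ratio (vertical axis), WT in blue and AEG-1 KO in red, with group means as dashes. The AEG-1 KO points lie below the WT points in all 8 pairs, at a mean of -1.04 for Mrc1 and -0.56 for Cd163.

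A further 22 genes of scavenger receptor families or with a scavenging role were listed, of which 16 passed the filter on low counts. Of these 6 were higher, none was lower and 10 did not pass the test (median log2 fold change 0.21; 3.31% of all genes were called higher). Scarb2, the lysosomal relative of Cd36 and Scarb1, rose from 257 ± 7.19 to 324 ± 7.74 CPM (SD, n = 3; adjusted p by edgeR = 0.00178). Cd5l, a secreted protein with the cysteine-rich domains also found in Cd163, had a log2 fold change of 0.55 and Cd14, the lipopolysaccharide co-receptor, one of 0.35 (adjusted p by edgeR = 0.000165 and 0.0016). Cd44, the hyaluronan receptor, and Cxcl16, a membrane-bound chemokine that also binds oxidised LDL, rose by 0.26 and 0.22 on the log2 scale (adjusted p by edgeR = 0.0121 and 0.0175). Cd44 lost its call in 3 of 14 alternatives and Cxcl16 in 4, while Scarb2, Cd5l and Cd14 kept theirs in all 14. Stab2, the relative of Stab1, was called at a low level, 1.30 ± 0.0934 CPM in WT against 1.91 ± 0.154 CPM in AEG-1 KO (adjusted p by edgeR = 0.048). It lost its call in 10 of 14 alternatives, among them DESeq2, limma-voom and each of the 6 fits without 1 library (adjusted p over its alternatives from 0.0398 to 0.187). The count of 6 was 3 without WT replicate 2 and 3 without AEG-1 KO replicate 2. Cxcl16 shares 552 exon bases with Zmynd15 on the opposite strand and Stab2 shares 141 with an antisense gene, so both counts are uncertain. Over the 6 libraries Zmynd15 had 8149 reads against 65570 for Cxcl16, and the antisense gene 10 against 443 for Stab2. Cd68 and Lrp1, the most abundant of the receptors that did not pass, were at 831 ± 66.5 and 854 ± 37.4 CPM and at 2019 ± 245 and 2210 ± 136 CPM in WT and AEG-1 KO.

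A list of 22 possible regulators held transcription factors, the cytokine Il10 and the cytokine receptor gene Il4ra, and a place on it does not mean a known action on these receptors. All 22 were tested, of which 3 rose, 1 fell and 18 did not pass (median log2 fold change 0.07). The called share was 18.2%, against 6.35% of all genes tested. Il10, a cytokine known to raise Cd163, fell by 0.64 on the log2 scale (adjusted p by edgeR = 0.00169). Bhlhe40, a known repressor of Il10, rose from 9.51 ± 0.851 to 15.4 ± 1.07 CPM (SD, n = 3; adjusted p by edgeR = 0.0019). Its exons share 118 bases with an antisense gene, and its count is uncertain by the reads of that stretch. Over the 6 libraries the antisense gene had 5 reads and Bhlhe40 3441. Tfec and Mitf, related lysosome and macrophage transcription factors, rose by 0.43 and 0.21 on the log2 scale (adjusted p by edgeR = 0.0028 and 0.0389), and Mitf lost its call without any 1 library other than WT replicate 3 (adjusted p by edgeR over its alternatives from 0.0279 to 0.222). Among the genes not called, Nfe2l2, the antioxidant regulator to which Marco is known to respond, was at 355 ± 10.8 CPM in WT against 394 ± 22.9 CPM in AEG-1 KO (adjusted p by edgeR = 0.117). Pparg, a known activator of Cd36, was at 8.14 ± 0.106 and 8.65 ± 0.598 CPM (adjusted p by edgeR = 0.569), and Spi1, which encodes PU.1, at 444 ± 68.6 and 434 ± 35.3 CPM (adjusted p by edgeR = 0.899).

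Genes that handle cargo after uptake, listed for lysosomal release, storage and export of cholesterol and for signalling from these receptors, moved in both directions. Of 22 listed, 20 were tested, of which 7 rose, 2 fell and 11 did not pass (median log2 fold change 0.11; over all genes 3.31% were called higher and 3.04% lower). Those that rose act on cholesterol or lipid droplets. Nceh1 and Lipa, which release cholesterol from its esters, had log2 fold changes of 0.36 and 0.24, and Npc1 and Npc2, which move it out of the lysosome, of 0.17 and 0.15. Soat1, which makes the esters, was at 0.23, the lipid droplet coat gene Plin2 at 0.23 and the exporter Abca1 at 0.35 (adjusted p by edgeR for the 7 from 0.000997 to 0.0471). Fyn and Lyn, Src family kinases known to signal from Cd36, fell by 0.26 and 0.20 on the log2 scale (adjusted p by edgeR = 0.0154 and 0.0245). The count of 9 was 4 without WT replicate 2, 2 without AEG-1 KO replicate 2 and 5 without AEG-1 KO replicate 3. In all 3 of these fits Lyn and Fyn lost their calls. Npc1 and Npc2 lost theirs in each of the 6 fits without 1 library (adjusted p by edgeR over their alternatives from 0.0151 to 0.216 and from 0.0402 to 0.282). Soat1 lost its call in 3 of 14 alternatives and Plin2 and Lipa each in 2, while Nceh1 and Abca1 kept theirs in all 14. Npc1 and Lyn share exon bases with genes on the opposite strand (511 and 248 bases with the longest such overlap, Rmc1 and Gm26857) and are uncertain by the reads of those stretches. Over the 6 libraries Rmc1 had 15451 reads against 98629 for Npc1, and Gm26857 395 against 178726 for Lyn.

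**Figure D4:**
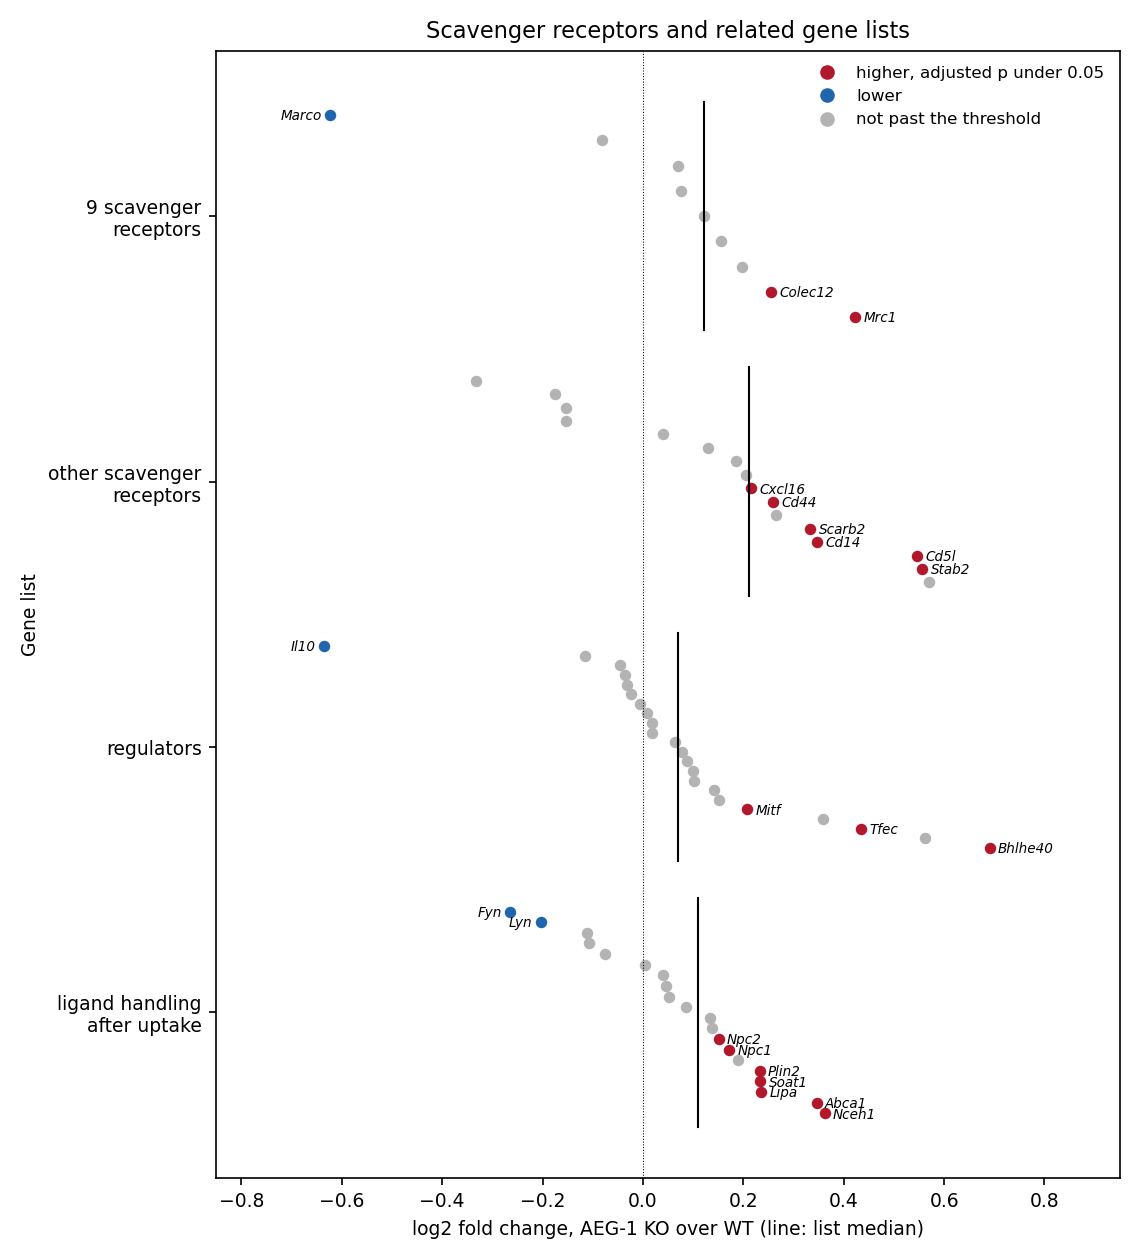
Log2 fold change on the horizontal axis (AEG-1 KO relative to WT) of each tested gene in 4 lists (rows), with genes called at an adjusted p by edgeR under 0.05 in red (higher) or blue (lower) and named, other genes in grey, and the list median as a line. The medians lie at 0.12, 0.21, 0.07 and 0.11, and Marco and Il10 are the lowest points.

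Markers of other cells moved in the same libraries, and their part in the receptor changes was not tested. Each count of called markers stands against 3.31% of all genes called higher and 3.04% called lower. Of 11 tested monocyte and progenitor markers 5 rose and none fell, and their summed level was 149 to 166 CPM in WT and 199 to 213 CPM in AEG-1 KO. Of 11 tested neutrophil markers 6 rose and 1 fell, with sums of 449 to 458 and 506 to 555 CPM. Of 9 tested fibroblast and stromal markers 3 rose, with sums of 9.38 to 16.8 and 15.6 to 19.4 CPM. Of 5 tested endothelial markers Pecam1 fell, Stab2 was called higher with the limits given above, and 3 did not pass, with sums of 86.9 to 90.4 and 75.7 to 79.1 CPM. Those 3 were Vwf, at 8.92 CPM in WT and 10.9 in AEG-1 KO, Cdh5, at 1.46 and 2.10 CPM without overlap of the groups, and Kdr, at 1.36 and 1.48 CPM. The 6 endothelial markers not tested were under 1 CPM in every library. Of 15 macrophage markers 3 rose, 1 fell and 11 did not pass, with sums of 21133 to 21734 CPM in WT and 22364 to 22541 CPM in AEG-1 KO. Csf1r, which rose, and Adgre1, which fell, were among them (log2 fold changes 0.38 and -0.19; adjusted p by edgeR = 0.000919 and 0.0238). Csf1r shares 873 exon bases with Hmgxb3 on the opposite strand, so its count is uncertain. Over the 6 libraries Hmgxb3 had 10186 reads and Csf1r 618849.

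Of the remaining marker lists, B cell markers summed to 36.8 to 40.2 CPM in WT and 36.6 to 42.2 CPM in AEG-1 KO, nearly all of it Cd79b, and 2 of 6 tested rose. Dendritic cell markers summed to 14.6 to 15.8 and 15.2 to 16.7 CPM, with none of 6 tested called. Erythroid and megakaryocyte markers summed to 61.0 to 70.9 and 94.3 to 101 CPM, nearly all of it Pf4, which macrophages also express and which was the 1 of 3 tested that rose. Osteoclast markers summed to 218 to 246 and 190 to 204 CPM, with 1 of 5 tested higher and 2 lower. Mast cell and basophil markers summed to at most 0.133 CPM, and Mcpt4, Tpsb2 and Mcpt8 had no read.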

How the data were processed

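RNA of 6 libraries of bone marrow derived macrophages was made into TruSeq libraries and read on a HiSeq, per the labels. What the authors deposited is a table of unnormalised counts, with genes as Ensembl identifiers and 1 column for each library. Per the submitters' processing notes, reads were handled with cutadapt 1.9, FastQC 0.11.2, Subread, edgeR 3.18.1 and featureCounts 1.4.6-p4, on GRCm38 (mm10). For the tool settings, the annotation release and the strand setting, the entry is: not given in the sources used here.

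Of 46983 identifiers, 46488 matched a symbol in GENCODE mouse release M21 (GRCm38). Genes were kept by filterByExpr at a minimum count of 10. Library sizes were scaled by TMM, and genotype was the only term of the quasi-likelihood fit (edgeR 4.0.16, R 4.3.3), with Benjamini-Hochberg adjustment over 16115 genes and a threshold of 0.05. A standard error is the size of the log2 fold change divided by the root of F, and 95% intervals use the degrees of freedom of the fit. In the smallest library 1 CPM was 42.5 reads. Ratios were tested by exact permutation (SciPy 1.17.1), and near-identical stretches sought with BLAST+ 2.17.0. The fits were tested on simulated data. Replicates differed by more than sampling noise (chi-square per degree of freedom 5.21 to 17.79). Motifs were searched in the 250 bases before each start, not in the 300 bases first planned, because the last 50 are transcribed.

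Named were the 9 members, Mtdh, called members of 3 related lists and up to 3 abundant markers per cell type. Nfe2l2, Pparg, Spi1, Cd68, Lrp1 and further markers were added after their values were seen. The members and lists were chosen with earlier results of these data known. Alternatives were scaling by RLE, by the upper quartile or by library size alone, a stricter filter or none, DESeq2 1.42.0, limma-voom (limma 3.58.1), the replicate number as a block, and leaving out each library. Groups of 3 are too small for an outlier test, and none was applied.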

Additional observations from a re-analysis of the deposited data

How the results depend on the processing

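Marco and Mrc1 kept their direction and their call in all 14 alternatives. Leaving out 1 library at a time gave log2 fold changes of -0.66 to -0.59 for Marco and 0.38 to 0.45 for Mrc1. The Marco to Mrc1 log2 ratio then differed by -1.10 to -0.99, AEG-1 KO minus WT. Colec12 was called in 3 of 14, the fits without scaling factors, with the stricter filter and with limma-voom. It was not called with RLE scaling (0.25), upper-quartile scaling (0.25), no filter (0.24), DESeq2 (0.25) or the replicate block (0.26), nor without any 1 library (0.23 to 0.28); the cause was not tested. Msr1 passed with DESeq2 (0.19), and the fits without 1 library gave 0.16 to 0.24. Without 1 library, Olr1 ran from -0.000253 to 0.23 and Cd163 from -0.17 to 0.0105; the signs turned without WT replicate 1 and WT replicate 2, and neither gene was called in any fit. Cd36, Scarb1 and Stab1 ran from 0.03 to 0.11, 0.03 to 0.10 and 0.08 to 0.21, without a call in any alternative. The members called numbered 2 or 3 in every fit. Without 1 library, all genes called numbered 380 to 1092, other scavenger receptors 3 to 6, regulators 3 to 4 and ligand handling genes 2 to 7, against 1023, 6, 4 and 9. Marco was 2.37 times Cd36 in CPM and 4.41 times per kb, as mean of the WT libraries' ratios. With the replicate number as a block, 227 genes were called, and 3 other scavenger receptors, 2 regulators and 2 ligand handling genes. No label pairs the libraries beyond a shared number, so the numbers were not treated as pairs. Deviations of same-numbered libraries from their group means were weakly and negatively correlated (r across genes -0.274, -0.173 and -0.251). Deviations from a mean of 3 libraries constrain one another, so these r values do not test pairing. Of the 9 receptors, Olr1 and Cd163 had the fewest reads, 90 to 258 per library, and the widest intervals.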

Other observations

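In replicate 3 of each genotype, Stab1 stood at the opposite end of its range from Msr1 and Cd36. In WT, Stab1 was highest in replicate 1 (557 CPM) and lowest in replicate 3 (460 CPM), where Msr1 and Cd36 were highest (419 and 1552 CPM). In AEG-1 KO, Stab1 was highest in replicate 3 (616 CPM), where Msr1 and Cd36 were lowest (432 and 1492 CPM). Replicates 1 and 2 showed no such opposition in AEG-1 KO, where all 3 genes were higher in replicate 2 than in replicate 1. Marco, Scarb1 and Cd163 were, like Stab1, lowest in WT replicate 3 (3298, 120 and 2.08 CPM). In AEG-1 KO replicate 3 they were highest (2288, 137 and 2.43 CPM). Lrp1 and Spi1, outside the set, did the same, and Olr1 went the way of Msr1 and Cd36, though barely in AEG-1 KO. The pattern was thus not particular to Stab1. With 3 libraries per genotype this is a description of values, and no test was made.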
